A study of Mus musculus with 36 samples.

Results

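The genes described here are 8 stress-linked and growth-linked early response genes of mouse cortical neurons: the growth arrest and DNA damage genes Gadd45a, Gadd45b and Gadd45g, the cyclin-dependent kinase inhibitor gene Cdkn1a, and the immediate early response genes Ier2, Ier3, Ier5 and Ier5l. They were chosen by name, and all 8 were found among the 26709 genes of the RNA table. All 8 passed the filter on low values that left 16209 genes to test. None was at 0 reads in any library, and the lowest read count of any member in any library was 18, for Ier3.

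Neurons came from CD-1 mouse cortex at embryonic day 15, with the tissue of all embryos dissociated, and were grown for 7 days in vitro. Before any stimulus, firing was blocked in all cultures during 2 h with AP-5 (100 µM), an NMDA receptor antagonist, and TTX (1 µM), a sodium channel blocker. The treated groups then received 10 ng/ml BDNF, a neurotrophin that signals through the TrkB receptor, or 55 mM KCl, which depolarises the membrane, for 1, 6 or 10 h. Controls were kept in the 2 blockers throughout, for 3, 8 or 12 h in total. The sample labels give 2 h in the blockers for the treated groups. A change against controls therefore cannot tell the stimulus apart from the time spent in the blockers. RNA-seq and ATAC-seq, which measures open chromatin, were each made from 2 libraries in each of these 9 groups.

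GADD45 proteins are small nuclear proteins without known enzyme activity. They bind partners such as PCNA, cyclin-dependent kinase 1 and the stress kinase MAP3K4, and in neurons Gadd45b is known as an activity-induced gene linked to DNA demethylation at growth factor genes. Cdkn1a encodes p21, a classical target of p53 that inhibits cyclin-dependent kinases and binds PCNA, and it can also be induced by growth factors without p53. Ier2 encodes a nuclear protein, Ier3 a regulator of survival and ERK signalling, and Ier5 and its paralogue Ier5l encode nuclear proteins, of which IER5 is known to recruit the phosphatase PP2A to the heat shock factor HSF1. The IER family is defined by rapid induction and not by a shared enzyme activity.

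The promoters of 4 members are shown. Those of Gadd45b, Cdkn1a and Ier5l were taken because their RNA response differed between BDNF and KCl at 1 h. That of Gadd45g was added for comparison with its paralogue. Ier5 and Ier3 also differed between the stimuli at 1 h, by smaller amounts, and their promoters are not shown. RefSeq promoter entries of build GRCm38.p6 were found for 7 of the 8 members. The letters run 5′ to 3′ on the strand of the gene and cover the 250 bases before the RefSeq start of the entry, and capitals mark matches to the motifs named after them, with all letters small where nothing matched. Gadd45b at chr10:80929841-80930090 lies on the plus strand, as do Gadd45g at chr13:51846425-51846674 and the more 3′ of the 2 Cdkn1a entries at chr17:29093519-29093768, which an ATAC peak overlaps. Ier5l at chr2:30474200-30474449 lies on the minus strand. RefSeq starts need not be the first base of the gene in GENCODE: the Gadd45b and Ier5l entries run some bases into the GENCODE gene, and the Cdkn1a entry shown lies inside it.
Gadd45b: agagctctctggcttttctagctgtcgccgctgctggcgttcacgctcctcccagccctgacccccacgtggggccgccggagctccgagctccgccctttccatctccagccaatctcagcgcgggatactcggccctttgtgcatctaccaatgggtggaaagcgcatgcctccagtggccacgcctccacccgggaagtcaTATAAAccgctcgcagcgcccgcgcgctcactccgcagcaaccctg
Gadd45g: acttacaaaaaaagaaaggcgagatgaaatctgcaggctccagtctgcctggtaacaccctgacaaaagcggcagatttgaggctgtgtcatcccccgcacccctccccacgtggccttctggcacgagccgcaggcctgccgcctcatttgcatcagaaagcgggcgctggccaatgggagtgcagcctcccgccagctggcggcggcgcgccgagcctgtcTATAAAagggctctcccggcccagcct
Cdkn1a: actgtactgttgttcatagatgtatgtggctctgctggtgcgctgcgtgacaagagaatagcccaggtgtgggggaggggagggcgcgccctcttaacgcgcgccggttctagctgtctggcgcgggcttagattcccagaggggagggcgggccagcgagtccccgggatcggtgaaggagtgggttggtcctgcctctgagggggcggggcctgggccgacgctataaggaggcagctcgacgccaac
Ier5l: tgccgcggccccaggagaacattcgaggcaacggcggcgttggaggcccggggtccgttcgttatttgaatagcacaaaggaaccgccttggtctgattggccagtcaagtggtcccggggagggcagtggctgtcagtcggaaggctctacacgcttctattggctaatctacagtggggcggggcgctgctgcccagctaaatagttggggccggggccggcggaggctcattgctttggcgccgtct

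The motifs searched on both strands were the cAMP response element TGACGTCA and its part TGACG, which every full element also contains. The others were an AP-1 motif written loosely as TGANTCA, the EGR motif GCGTGGGCG, the CArG box of serum response factor, the NF-kB site and the TATA box. N stands for any base, so TGANTCA also matches forms other than TGACTCA and TGAGTCA. The TATA box was searched only as TATAAA, so near forms such as TATAAG, which the Cdkn1a sequence holds, were not marked. In the 8 entries of the 7 members, only TATAAA was found, in Gadd45b from position -46 to -41 and in Gadd45g from -27 to -22, counted back from -1 at the base before the start. TATAAA stood in 12.4% of all 32851 promoters of the table. The full cAMP response element stood in 1.55% of them, TGACG in 17.8%, TGANTCA in 6.75%, GCGTGGGCG in 0.536%, the CArG box in 1.47% and the NF-kB site in 5.0%. Ier2 had no entry. The ATAC peak over its start held 1 full cAMP response element, and the 100 bases of that peak just before the annotated start, chr8:84662853-84662952 on the minus strand, are shown with the element in capitals from position -45 to -38.
Ier2: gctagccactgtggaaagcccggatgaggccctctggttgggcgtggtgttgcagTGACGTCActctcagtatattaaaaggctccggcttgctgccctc

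RNA depth ranged from 8.51 M to 36.7 M reads (M, mega) per library with a median of 11.6 M, and ATAC depth from 1.24 M to 6.24 M reads in peaks with a median of 3.55 M. The deepest RNA library was control 1 h A, and the shallowest ATAC library was KCl 6 h B. Neuronal markers were high in every library, with Map2 between 19767 and 27548 and Tubb3 between 9795 and 17370 normalised counts. Markers of other cells were present too. Slc1a3 of astrocytes and progenitors ranged from 6290.3 to 11230 normalised counts, Mki67 of dividing cells from 1321 to 3508, and Olig1 of the oligodendrocyte lineage from 1839 to 3644. Summed over the 6 microglial markers the level ranged from 122 to 174 in controls, 106 to 158 with BDNF and 115 to 198 with KCl, and over the 6 vascular markers from 1697 to 2921, 1481 to 2187 and 1581 to 3097, where Cldn5 had a median of 0 and Col1a1 and Kdr ranged from 975 to 1965 and from 212 to 1183. The level of a gene in these bulk libraries cannot separate a change in RNA per cell from a change in the share of cells that express it.

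In silenced control neurons the members differed in level per kilobase of exon. Ier5 was highest, with a mean of 305 normalised counts per kb and a range of 274 to 330 over the 6 control libraries. Gadd45g followed with a mean of 255 (209 to 301), then Cdkn1a with 121 (93.3 to 155), Ier2 with 96.1 (87.9 to 103) and Ier5l with 50.9 (45.6 to 54.1). Gadd45a, Ier3 and Gadd45b had the lowest levels, with means of 24.1, 22.2 and 21.2 per kb and overlapping ranges. The ranges of Ier5 and Gadd45g overlapped, as did those of Cdkn1a and Ier2, while Ier5l lay clear of its neighbours on both sides. For change with time in the controls, limma called 0 of 16209 genes between 1 and 6 h, with 164 genes at an unadjusted p under 0.05, and 0 between 1 and 10 h, with 181. edgeR and DESeq2 on the whole reads also called 0 genes. They had 236 and 54 at an unadjusted p under 0.05 between 1 and 6 h, and 193 and 42 between 1 and 10 h. With no change, a share of 0.05 of the genes would be expected under that limit, and every count here was smaller. The 0 calls therefore do not show that the controls were stable. Of the members, Ier3 differed most between these control groups, by 0.53 ± 0.23 (SE) on the log2 scale between 1 and 6 h, with an unadjusted p of 0.035 and an adjusted p of 1.

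All RNA values from here on are normalised counts of the deposited table, which are read counts divided by 1 size factor per library, and they are given as library A and library B, with the 6 control libraries as lowest, median and highest. A log2 fold change compares a group with all 6 controls on the scale log2(value + 1), with its standard error (SE), and a gene was called at an adjusted p under 0.1 from limma over all 16209 genes. Coordinates of genes and peaks are those of mm10, with genes as GENCODE annotates them.

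**Figure D1:**
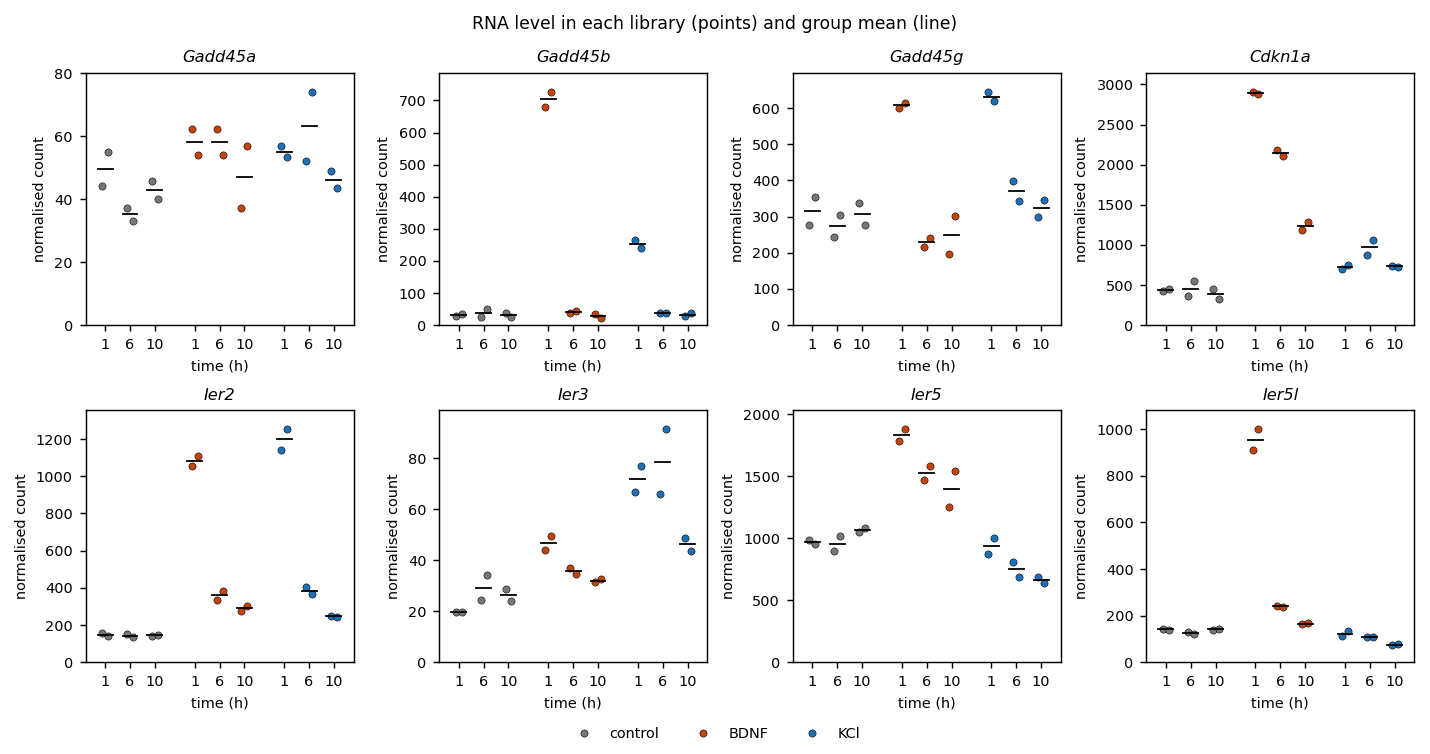
Normalised RNA count of each member (y axis, linear from 0) in controls, BDNF and KCl at 1, 6 and 10 h (x axis). Points are the 2 libraries of each group and black lines their mean. Gadd45b stood at 679.7 and 726.6 after 1 h of BDNF and between 241.7 and 264.2 after 1 h of KCl, and every other library was at or below 49.8.

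After 1 h of BDNF, all 8 members rose against controls, where 21.3% of all genes tested were called higher and 19.0% lower. After 1 h of KCl 5 of 8 rose, Gadd45b, Gadd45g, Cdkn1a, Ier2 and Ier3, and none fell, against 26.5% of all genes called higher and 28.2% lower. The members' median log2 fold change at 1 h was 1.90 with BDNF and 0.93 with KCl, whereas the median over all genes tested was 0.00 for both. At 6 h of BDNF 6 members were higher and 1 lower (22.1% and 21.1% of all genes), with a median of 0.57 beside 0.00 over all genes. At 10 h of BDNF 4 were higher and 0 lower (21.1% and 19.5% of all genes), with a median of 0.32 beside -0.01. For KCl, 5 were higher and 2 lower at 6 h (33.4% and 33.1% of all genes), with a median of 0.43 beside 0.01, and 3 were higher and 2 lower at 10 h (29.0% and 28.2% of all genes), with a median of 0.13 beside 0.01. The 2 lower members were Ier5 and Ier5l at both times.

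Gadd45b (ENSMUSG00000015312, chr10:80930073-80932204 on the plus strand), the member of its family best known as a neuronal activity gene, had the largest change of the 8 at 1 h of BDNF. Controls ranged from 25.1 through a median of 31.8 to 49.8. It reached 679.7 and 726.6 after 1 h of BDNF, 36.9 and 43.9 at 6 h, and 35.0 and 21.9 at 10 h. With KCl it reached 264.2 and 241.7, then 39.3 and 37.0, then 29.3 and 37.0. Both 1 h groups stood far above every control, with the BDNF libraries above the KCl libraries, and no later library exceeded the highest control. The group mean at 1 h was 20.8 times the control mean with BDNF and 7.50 times with KCl. On the log2 scale the rise was 4.38 ± 0.22 (SE), adjusted p = 4.8e-13, with BDNF and 2.91 ± 0.22, adjusted p = 3.6e-10, with KCl. It ranked 16th of 3459 genes called higher by size of the BDNF change and 69th of 4298 for KCl.

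Gadd45g (ENSMUSG00000021453, chr13:51846678-51848468 on the plus strand), the paralogue with the highest control level, rose at 1 h of both stimuli. Controls ranged from 244.7 through 290.8 to 353.2. It stood at 599.1 and 615.2 after 1 h of BDNF, 216.2 and 241.5 at 6 h, and 195.5 and 301.2 at 10 h. With KCl it stood at 644.6 and 619.1, then at 398.2 and 342.7, then at 299.5 and 346.3. The 4 libraries of 1 h were above all controls, and both BDNF libraries of 6 h were below all controls. The log2 fold change at 1 h was 1.03 ± 0.14 with BDNF, adjusted p = 8.2e-06, and 1.09 ± 0.14 with KCl, adjusted p = 2.2e-06. At 6 h Gadd45g was lower with BDNF, -0.38 ± 0.14, adjusted p = 0.041, and higher with KCl, 0.31 ± 0.14, adjusted p = 0.057. These 6 h calls rest on single libraries. Without BDNF 6 h A the change was -0.30 with an adjusted p of 0.29, against the 6 h controls alone it was -0.25 with an adjusted p of 0.31, and without KCl 6 h A it was 0.21 with an adjusted p of 0.37. At 10 h of BDNF the change was -0.29, adjusted p = 0.12, and became a call without BDNF 10 h B, -0.60 with an adjusted p of 0.010, and without control 6 h A, -0.34 with an adjusted p of 0.057.

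Gadd45a (ENSMUSG00000036390, chr6:67035096-67037457 on the minus strand), known as a p53 target, had the smallest change of the 8 at 1 h of BDNF. Controls ranged from 33.2 through 42.2 to 54.8. It stood at 62.3 and 54.2, 62.2 and 54.0, and 37.3 and 56.8 after 1, 6 and 10 h of BDNF, and at 56.8 and 53.5, 52.1 and 74.1, and 48.9 and 43.6 after KCl. Each treated group except KCl 10 h had 1 library above the highest control and 1 within the control range, and both KCl 10 h libraries were within it. It was called higher at 1 h of BDNF (0.46 ± 0.20, adjusted p = 0.082), at 6 h of BDNF (0.45 ± 0.20, adjusted p = 0.081) and at 6 h of KCl (0.55 ± 0.20, adjusted p = 0.020), and not at 1 h of KCl (0.38 ± 0.20, adjusted p = 0.12). Both BDNF calls were lost without either library of their own group (adjusted p from 0.15 to 0.41), without control 6 h A, control 6 h B or control 10 h B (0.11 to 0.14), with DESeq2 (0.18 and 0.14) and with no filter on low values (0.12 for both), and the 1 h call also against the 1 h controls alone (0.23, adjusted p = 0.55). The KCl 6 h call was lost without KCl 6 h B, 0.30 with an adjusted p of 0.33, and KCl 1 h became a call without control 1 h B, 0.46 with an adjusted p of 0.060. Gadd45a shares 337 exonic bases with E230016M11Rik on the opposite strand, which ranged from 7.62 to 49.8 normalised counts, and since the strand setting of the counting is not given in the sources used here, reads of the pair cannot be told apart.

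Cdkn1a (ENSMUSG00000023067, chr17:29090976-29100727 on the plus strand), which encodes p21, had the largest rise of the 8 at 6 and 10 h of BDNF. Controls ranged from 331.4 through 438.6 to 550.6. It stood at 2907 and 2877 after 1 h of BDNF, 2184 and 2102 at 6 h, and 1191 and 1279.8 at 10 h. With KCl it stood at 705.1 and 745.3, then at 879.0 and 1064, then at 738.3 and 728.6. All 12 treated libraries were above every control, and every BDNF library was above every KCl library. The BDNF means were 6.74, 4.99 and 2.88 times the control mean, and the KCl means 1.69, 2.26 and 1.71 times. On the log2 scale BDNF gave 2.77 ± 0.13, 2.34 ± 0.13 and 1.54 ± 0.13, with adjusted p-values of 1.1e-11, 2.4e-10 and 8.2e-08. KCl gave 0.77 ± 0.13, 1.19 ± 0.13 and 0.79 ± 0.13, with adjusted p-values of 8.2e-05, 3.8e-07 and 6.9e-05. Cdkn1a shares 273 exonic bases with AC167363.2, a gene on the opposite strand.

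Ier2 (ENSMUSG00000053560, chr8:84661331-84662852 on the minus strand, a single exon) rose in all 6 comparisons. Controls ranged from 133.8 through 145.2 to 156.3. It stood at 1057 and 1107 after 1 h of BDNF, 335.1 and 384.3 at 6 h, and 278.0 and 305.0 at 10 h. With KCl it stood at 1142 and 1253, then at 403.1 and 365.8, then at 249.3 and 246.1. No treated library overlapped the controls, and the levels stepped down from 1 h to 6 h to 10 h without overlap under either stimulus. Against controls the log2 fold change in time order was 2.88, 1.29 and 0.99 under BDNF and 3.03, 1.39 and 0.76 under KCl, each ± 0.09 (SE), and the largest of the 6 adjusted p-values was 2.6e-07.

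Ier3 (ENSMUSG00000003541, chr17:35821684-35822923 on the plus strand), a gene linked to cell survival, had the lowest read counts and its largest changes under KCl. Controls ranged from 19.7 through 24.2 to 34.2. It stood at 44.1 and 49.6, 36.9 and 34.8, and 31.6 and 32.5 after 1, 6 and 10 h of BDNF. With KCl it stood at 66.7 and 77.0, 65.9 and 91.5, and 48.9 and 43.6. All KCl libraries were above all controls and above the BDNF libraries of 6 and 10 h, with the KCl 10 h pair just below the higher BDNF 1 h library. The KCl log2 fold changes were 1.50 ± 0.21, 1.61 ± 0.21 and 0.88 ± 0.21, with adjusted p-values of 3.0e-06, 7.0e-07 and 0.0012. The BDNF changes were 0.90 ± 0.21, adjusted p = 0.0017, then 0.52 ± 0.21, adjusted p = 0.053, then 0.37 ± 0.21, adjusted p = 0.18. The 6 h BDNF call was lost with DESeq2 (adjusted p = 0.12), against the 6 h controls alone (0.30, adjusted p = 0.37), without BDNF 6 h A (0.48, adjusted p = 0.24) and without BDNF 6 h B (0.56, adjusted p = 0.17), and at 10 h a call was gained without control 6 h B (0.46, adjusted p = 0.083).

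Ier5 (ENSMUSG00000056708, chr1:155096361-155099636 on the minus strand) and its paralogue Ier5l, both single-exon genes, were higher than controls with BDNF at all 3 times and lower with KCl at 6 and 10 h. Ier5 controls ranged from 897.7 through 1002 to 1082. It stood at 1784 and 1881, 1473 and 1584, and 1250.1 and 1545 after 1, 6 and 10 h of BDNF, all above every control. With KCl it stood at 871.8 and 1005, within or just below the control range, and then at 812.1 and 688.8 and at 689.4 and 642.6, all below every control. The BDNF log2 fold changes were 0.88 ± 0.09, 0.61 ± 0.09 and 0.48 ± 0.09, with adjusted p-values of 5.7e-08, 9.7e-06 and 0.00024. The KCl changes were -0.09 ± 0.09, adjusted p = 0.41, then -0.41 ± 0.09, adjusted p = 0.00030, then -0.58 ± 0.09, adjusted p = 1.0e-05.

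Ier5l (ENSMUSG00000089762, chr2:30471537-30474219 on the minus strand) rose at 1 h of BDNF and was not detectably changed at 1 h of KCl. Controls ranged from 122.4 through 138.7 to 145.1. It stood at 909.3 and 999.8 after 1 h of BDNF, 243.2 and 236.1 at 6 h, and 165.0 and 167.3 at 10 h. With KCl it stood at 114.8 and 132.6, 109.1 and 108.8, and 73.3 and 78.4. The BDNF libraries were above all controls at each time, and the KCl libraries of 6 and 10 h were below all controls. BDNF gave 2.80 ± 0.10, adjusted p = 2.4e-15, then 0.81 ± 0.10, adjusted p = 1.7e-06, then 0.28 ± 0.10, adjusted p = 0.035. KCl gave -0.14 ± 0.10, adjusted p = 0.26, then -0.32 ± 0.10, adjusted p = 0.0092, then -0.84 ± 0.10, adjusted p = 6.3e-07. The 10 h BDNF call was lost without BDNF 10 h A (0.29, adjusted p = 0.13) and without BDNF 10 h B (0.27, adjusted p = 0.18), and against controls of matching time only, both it (0.24, adjusted p = 0.20) and the 6 h KCl call (-0.20, adjusted p = 0.18) were lost.

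**Figure D2:**
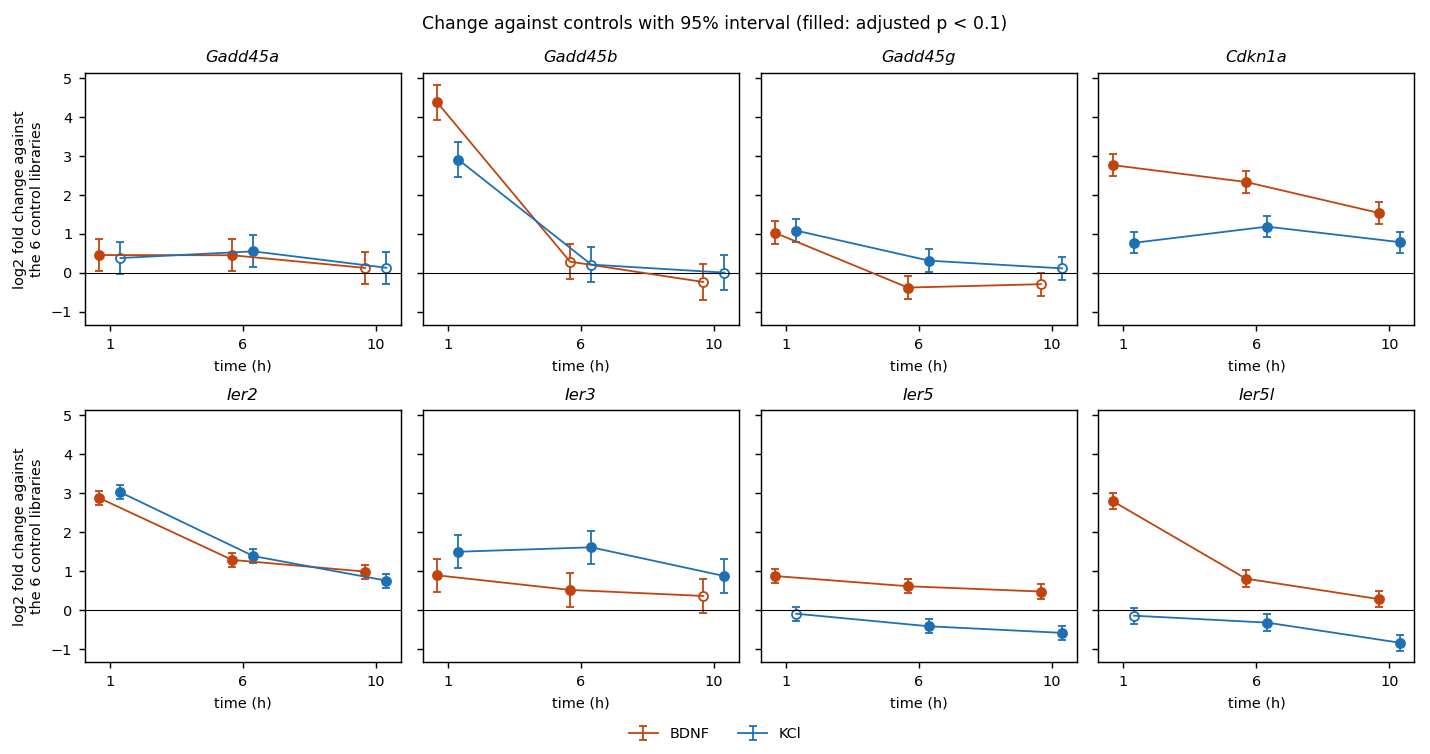
Log2 fold change of each member against the 6 control libraries (y axis) at 1, 6 and 10 h (x axis, times equally spaced) for BDNF and KCl. Bars are 95% confidence intervals from limma, and filled points have an adjusted p under 0.1. Ier5 and Ier5l lie above 0 with BDNF at every time and below 0 with KCl, where the 1 h points are open.

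Compared directly, BDNF and KCl differed for 5 of 8 members at each time. At 1 h 4 members were higher with BDNF and 1 lower, where 24.6% of all genes were called higher and 18.2% lower. At 6 h 3 were higher and 2 lower (29.6% and 27.8% of all genes), and at 10 h 4 were higher and 1 lower (23.1% and 21.8% of all genes). Cdkn1a, Ier5 and Ier5l were higher with BDNF at all 3 times. Their 1 h differences on the log2 scale were 1.99 ± 0.16, 0.97 ± 0.11 and 2.94 ± 0.12, with adjusted p-values of 2.0e-08, 2.4e-07 and 8.1e-14, and Ier5l ranked 36th of the 3986 genes called higher with BDNF. At 10 h they were 0.75 ± 0.16, 1.06 ± 0.11 and 1.12 ± 0.12. Gadd45b was called at 1 h, where it differed by 1.47 ± 0.27, adjusted p = 0.00014, and its differences at 6 and 10 h were 0.08 and -0.24 with adjusted p-values of 0.83 and 0.51.

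Members with higher levels under KCl were Gadd45g and Ier3. Gadd45g did not differ detectably at 1 h, with a difference of -0.06 and a 95% interval from -0.41 to 0.30, and was lower with BDNF at 6 h, -0.69 ± 0.17, adjusted p = 0.0022. Its call at 10 h, -0.41 ± 0.17, adjusted p = 0.068, rested on BDNF 10 h A, without which it was -0.10 with an adjusted p of 0.72, and was also lost without KCl 10 h B, -0.30 with an adjusted p of 0.32. Ier3 was lower with BDNF at 6 h, -1.09 ± 0.25, adjusted p = 0.00099, and at 1 h, -0.60 ± 0.25, adjusted p = 0.065. The 1 h call was lost without BDNF 1 h A, BDNF 1 h B or KCl 1 h B, with values of -0.52, -0.69 and -0.50 and adjusted p-values of 0.25, 0.11 and 0.26. Ier2 did not differ detectably at 1 h, with an interval from -0.36 to 0.07 around -0.15. At 10 h it was called higher with BDNF by 0.23 ± 0.11, adjusted p = 0.087, and the call was lost without BDNF 10 h B (0.17, adjusted p = 0.37), KCl 10 h A (0.24, adjusted p = 0.17) or KCl 10 h B (0.22, adjusted p = 0.22). For Gadd45a the 1 h difference was 0.08 with an interval from -0.43 to 0.58.

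**Figure D3:**
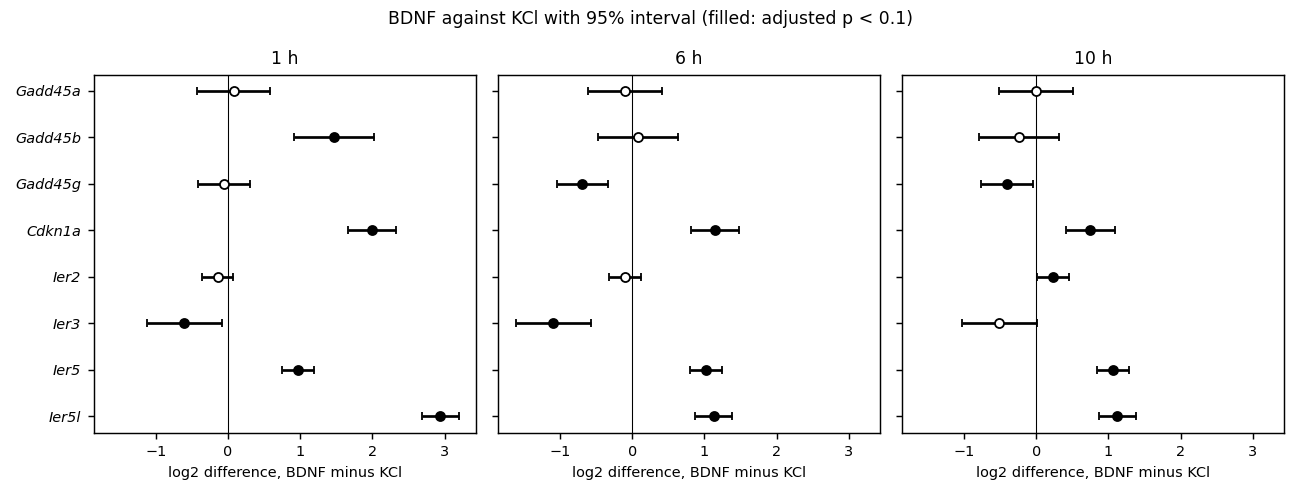
Log2 difference BDNF minus KCl (x axis) for each member (y axis) at 1, 6 and 10 h, with 95% confidence intervals from limma. Filled points have an adjusted p under 0.1. Ier5l lies farthest to the right at 1 h at 2.94, and Ier3 farthest to the left at 6 h at -1.09.

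The decline after 1 h was compared within each stimulus. From 1 to 6 h of BDNF, 6 of 8 members were called and all 6 fell, where 33.6% of all genes were called. Gadd45b fell by 4.09 on the log2 scale, adjusted p = 2.2e-10, second by size among the 2875 genes called lower. Ier5l fell by 1.99, Ier2 by 1.59 and Gadd45g by 1.41, all with adjusted p-values of 3.7e-06 or less. Cdkn1a fell by 0.43, adjusted p = 0.053, and Ier5 by 0.26, adjusted p = 0.075, and each of these calls was lost when either library of BDNF 1 h or BDNF 6 h was left out, with values from -0.46 to -0.41 and from -0.31 to -0.21. From 6 to 10 h of BDNF 1 member was called, where 0.216% of all genes were. That gene was Cdkn1a, -0.79 ± 0.16, adjusted p = 0.077, and the call was lost without any 1 of the 4 libraries compared, with values from -0.85 to -0.74 and adjusted p-values from 0.34 to 0.58.

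From 1 to 6 h of KCl, 5 of 8 members were called, 4 lower and 1 higher, where 59.6% of all genes were called. Gadd45b fell by 2.70, Ier2 by 1.64 and Gadd45g by 0.77, with adjusted p-values of 3.4e-08, 5.9e-11 and 0.00079. Ier5 fell by 0.32, adjusted p = 0.014, and Cdkn1a rose by 0.42, adjusted p = 0.035. The Ier5 call was lost without KCl 1 h B (-0.22, adjusted p = 0.17) or KCl 6 h B (-0.20, adjusted p = 0.17), and the Cdkn1a call without KCl 1 h A (0.38, adjusted p = 0.14) or KCl 6 h B (0.28, adjusted p = 0.28). From 6 to 10 h of KCl 4 members fell, where 22.5% of all genes were called. Ier2 fell by 0.63, adjusted p = 0.00051, and Ier5l by 0.52, adjusted p = 0.0074. Ier3, -0.74 with an adjusted p of 0.051, and Cdkn1a, -0.40 with an adjusted p of 0.099, lost their calls without KCl 6 h B (-0.50 and -0.26), KCl 10 h A (-0.82 and -0.41) or KCl 10 h B (-0.66 and -0.39), and a fall of Gadd45a was called only without KCl 6 h A (-0.67, adjusted p = 0.095).

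Whether this 1 to 6 h change differed between stimuli was tested as an interaction, BDNF minus KCl. It was called for 4 of 8 members, all with the more negative change under BDNF, where 48.1% of all genes were called. The difference was -1.81 ± 0.17 for Ier5l, adjusted p = 6.3e-08, -1.40 ± 0.38 for Gadd45b, adjusted p = 0.0050, -0.85 ± 0.22 for Cdkn1a, adjusted p = 0.0056, and -0.63 ± 0.24 for Gadd45g, adjusted p = 0.042. The Gadd45g call was lost without BDNF 6 h A (-0.55, adjusted p = 0.13), KCl 1 h B (-0.60, adjusted p = 0.11) or KCl 6 h A (-0.53, adjusted p = 0.13). For Ier2 the interval was -0.26 to 0.36 and for Ier5 -0.25 to 0.37. From 6 to 10 h limma, edgeR and DESeq2 each called 0 members, and in limma 1, Ier2, had an unadjusted p under 0.05, at 0.037.

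Across the 9 group means of log2(value + 1), the members did not share one pattern. The highest Pearson correlations between members were 0.88 for Gadd45b with Gadd45g, 0.87 for Ier5 with Ier5l and 0.87 for Gadd45b with Ier2, and the lowest was -0.24 for Ier3 with Ier5. The 9 means share their libraries and controls, so these are descriptions. The same measure was taken over those of the 16209 tested genes that have a symbol. The genes most like Ier2 were Nfkbid, an inhibitor of NF-kB, and Junb, an AP-1 subunit, both at 0.99. Pim3, a kinase, followed at 0.98. Junb had log2 fold changes of 4.66 and 5.47 after 1 h of BDNF and KCl, beside 2.88 and 3.03 for Ier2. Those most like Cdkn1a were Dusp5, a phosphatase that acts on ERK, at 0.99, and Gps1 and C1ql2 at 0.98, and Dusp5 had 1 h changes of 4.07 and 0.72 beside 2.77 and 0.77 for Cdkn1a.

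Gadd45b was most like Braf at 0.99, a kinase of the ERK pathway, and Arl5b and Ing1 at 0.98. This measure compares the shape of a pattern and not its size. Braf had 1 h changes of 0.74 with BDNF and 0.56 with KCl, beside 4.38 and 2.91 for Gadd45b. Gadd45g was most like Aff4, Lysmd3 and Sema4c at 0.98, 0.97 and 0.97. Ier5l was most like the receptor gene Ephb3 at 0.98 and Tacc1 and Pfkfb3 at 0.97, and Ier5 was most like Tsr1, Gm45902 and Nop58 at 0.99. Tsr1 and Nop58 are ribosome biogenesis genes, and Nop58 had a 1 h BDNF change of 0.59 and a 6 h KCl change of -0.31. Ier3 was most like Dhx15 at 0.99, Gm4596 at 0.98 and Gm14044 at 0.96, and Gadd45a, at the lowest values, was like Gm3272, Gm8894 and Abtb2 at 0.92, 0.91 and 0.90.

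Chromatin accessibility was measured in 27 ATAC peaks assigned to the members, and 26 passed the filter at a mean of 10 reads. A peak that overlapped a window of 1000 bases before to 100 bases after a member's start was assigned to that member. Any other peak was assigned where the nearest annotated transcript start of a protein-coding gene was the member's and lay within 50 kb. Such a window was overlapped by 8 of the 27, 2 of them at Gadd45g and none at Ier3. Several other peaks lie inside neighbouring genes, at Gadd45a in Gng12 and E230016M11Rik, at Ier2 in Gm26664, at Ier3 in 4833427F10Rik and at Ier5 in Gm9530, and which gene a peak belongs to was not tested. Counts are scaled here by the LOESS offsets of the edgeR fit. For change with time in the controls, edgeR called 0 of 56383 peaks between 1 and 6 h and 21 between 1 and 10 h. At an unadjusted p under 0.05 stood 2597 and 4605 peaks. Of the 26 member peaks, 0 were called in either comparison. Of the 26 tested, 3 were called at 1 h of BDNF, 2 at 6 h and 0 at 10 h, where 17.3%, 10.6% and 9.36% of all 56383 peaks were called. At 10 h of BDNF, 0 member peaks were also called by DESeq2 and by limma, and in edgeR 1 had an unadjusted p under 0.05, the Ier2 peak 1.30 kb upstream at 0.044. With KCl, 3 were called at 1 h, 1 at 6 h and 1 at 10 h, where 8.31%, 7.56% and 7.87% of all peaks were called. Between BDNF and KCl at 1 h 3 differed, where 14.8% of all peaks did.

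At the promoter peaks few changes were called. At Gadd45b, whose RNA mean at 1 h of BDNF was 20.8 times the control mean, the promoter peak changed by 0.04 ± 0.14 on the log2 scale after 1 h of BDNF and 0.08 ± 0.13 after 1 h of KCl, with adjusted p-values of 0.90 and 0.78. At Cdkn1a and Ier5l the 1 h BDNF changes were 0.24 ± 0.26 and 0.11 ± 0.16, with adjusted p-values of 0.64 and 0.75, and at Ier2 0.06 ± 0.21, adjusted p = 0.90. Over the 8 promoter peaks and 6 comparisons with controls the changes ranged from -0.61 to 0.41, and 1 was called. That was Gadd45a at 1 h of KCl, where controls ranged from 387.8 through 406.8 to 445.5 and the KCl libraries stood at 491.0 and 530.7, above all of them. Its change was 0.32 ± 0.09, adjusted p = 0.023, and its BDNF minus KCl difference at 1 h was -0.35 ± 0.11, adjusted p = 0.029. The KCl call was lost without KCl 1 h A (0.37, adjusted p = 0.10) or KCl 1 h B (0.26, adjusted p = 0.34), and the difference without BDNF 1 h A (-0.25, adjusted p = 0.35) or KCl 1 h B (-0.30, adjusted p = 0.28). Both calls were also lost with TMM scaling and with DESeq2 size factors.

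The peaks that rose with BDNF lay away from the promoters, and the central 200 bases of 2 of them are shown on the plus strand, with matches to the searched motifs in capitals. The first lies at chr13:51848926-51849125, downstream of Gadd45g and outside any annotated gene, with its centre 2.28 kb from the start. It held 1 TGANTCA match, TGAATCA, from base 100 to 106 of the 200, and 1 TATAAA. The second lies at chr17:35777215-35777414 in an exon of the long noncoding RNA gene 4833427F10Rik, with its centre at -44.37 kb from the start of Ier3. It held 1 full cAMP response element, from base 151 to 158, and 1 further TGACG. Over the central 200 bases of all 58177 peaks, TGANTCA stood in 13.2%, TATAAA in 9.07%, TGACG in 11.9% and the full element in 0.698%.
Gadd45g downstream peak: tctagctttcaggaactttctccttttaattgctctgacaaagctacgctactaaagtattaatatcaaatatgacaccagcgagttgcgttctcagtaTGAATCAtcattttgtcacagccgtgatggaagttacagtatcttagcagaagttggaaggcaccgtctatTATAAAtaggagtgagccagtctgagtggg
Ier3 upstream peak: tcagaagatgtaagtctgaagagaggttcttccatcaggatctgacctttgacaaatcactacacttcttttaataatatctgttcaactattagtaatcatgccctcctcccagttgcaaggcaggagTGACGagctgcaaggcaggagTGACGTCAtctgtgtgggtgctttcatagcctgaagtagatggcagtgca

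At the Gadd45g downstream peak, controls ranged from 13.1 through 23.5 to 32.2 scaled counts, and were lowest at 10 h (13.1 and 17.0). It stood at 63.5 and 59.5, 51.7 and 33.4, and 33.3 and 36.8 after 1, 6 and 10 h of BDNF, and at 44.5 and 41.2, 42.6 and 48.0, and 25.7 and 32.4 after KCl. All treated libraries except KCl 10 h A were above the highest control, although BDNF 6 h B, BDNF 10 h A and KCl 10 h B exceeded it by less than 2 scaled counts. The changes were 1.37 ± 0.28 at 1 h of BDNF, adjusted p = 4.1e-05, 0.82 ± 0.29 at 6 h, adjusted p = 0.062, 0.85 ± 0.28 at 1 h of KCl, adjusted p = 0.059, and 0.91 ± 0.32 at 6 h, adjusted p = 0.075. The 1 h BDNF call held without any single library. The other 3 were lost against controls of matching time (adjusted p from 0.39 to 0.45) and without control 10 h A or control 10 h B, with adjusted p-values from 0.11 to 0.13 for the libraries left out. They were also lost without BDNF 6 h A (0.49, adjusted p = 0.71), KCl 1 h A (0.80, adjusted p = 0.29), KCl 1 h B (0.91, adjusted p = 0.24), KCl 6 h A (1.01, adjusted p = 0.31) or KCl 6 h B (0.84, adjusted p = 0.26). Neither of the 2 promoter peaks of Gadd45g was called.

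At the Ier3 upstream peak, controls ranged from 10.1 through 17.8 to 21.5. It stood at 49.5 and 39.5, 29.1 and 32.5, and 29.4 and 25.4 after BDNF, and at 30.6 and 23.8, 35.1 and 15.8, and 31.3 and 30.1 after KCl. All treated libraries but KCl 6 h B, the shallowest ATAC library, were above every control. The change was 1.38 ± 0.32 at 1 h of BDNF, adjusted p = 0.00044, a call that held without any single library. At 6 h it was 0.86 ± 0.33, adjusted p = 0.098, which was lost without BDNF 6 h A (0.93, adjusted p = 0.27), BDNF 6 h B (0.77, adjusted p = 0.45), control 1 h A (0.86, adjusted p = 0.12), control 1 h B (0.82, adjusted p = 0.15) or control 10 h B (0.75, adjusted p = 0.20), and also with limma, with DESeq2 and against controls of matching time (0.57). With KCl the changes of 0.66, 0.74 and 0.85 were not called, with adjusted p-values of 0.25, 0.27 and 0.15, while the RNA of Ier3 was called higher with KCl than with BDNF at 1 and 6 h. The difference between stimuli at this peak at 1 h was 0.72 ± 0.38 in favour of BDNF, adjusted p = 0.24.

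**Figure D4:**
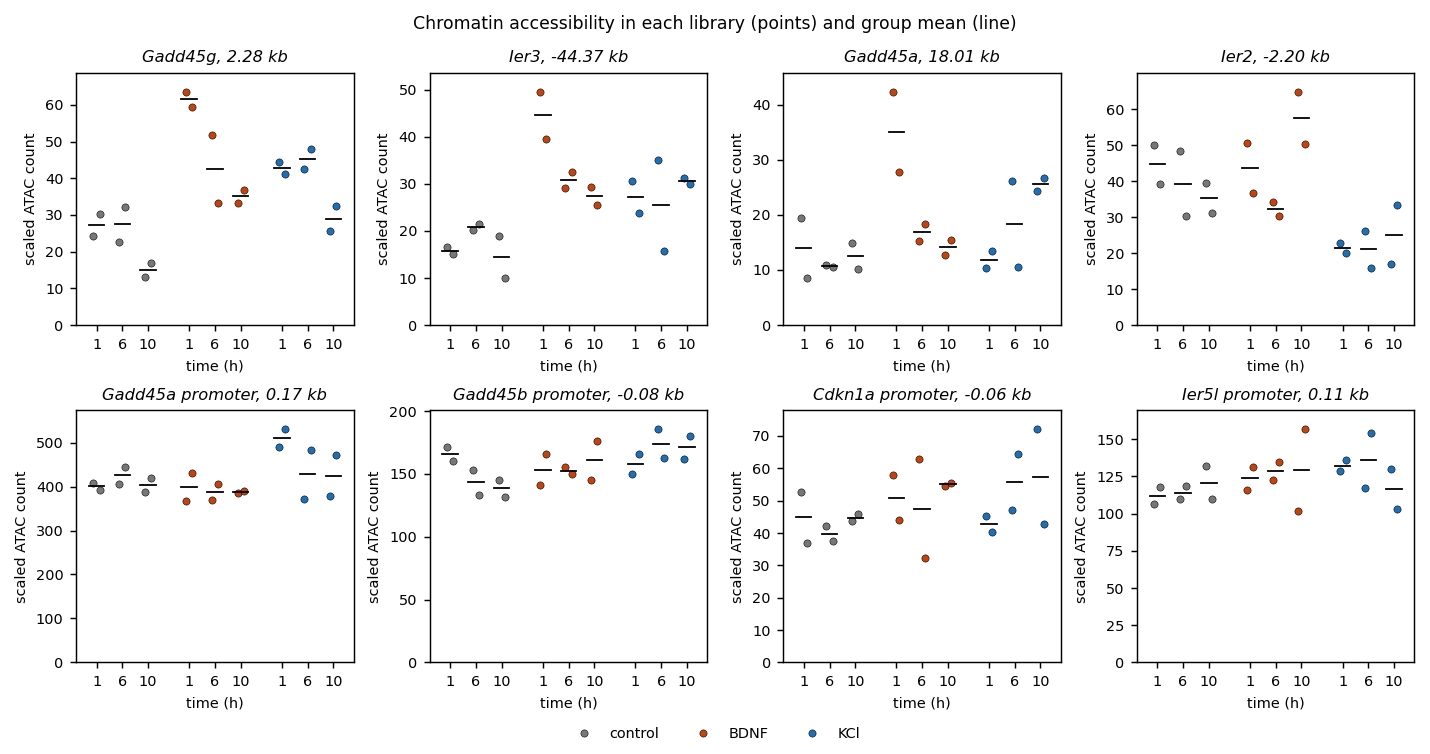
LOESS-scaled ATAC count (y axis, linear from 0) of 8 peaks in controls, BDNF and KCl at 1, 6 and 10 h (x axis), with the distance of each peak's centre from the nearest annotated start of the gene in kb in the panel title. Points are the 2 libraries and lines their mean. At the Gadd45g downstream peak the BDNF 1 h libraries reached 63.5 and 59.5 over controls of at most 32.2, and at the Gadd45b promoter the 1 h BDNF change was 0.04 on the log2 scale.

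At Gadd45a a peak centred 18.01 kb downstream of the start, in the 3′ UTR of the neighbouring gene Gng12, rose with BDNF at 1 h. Controls ranged from 8.6 through 10.7 to 19.5, and the BDNF 1 h libraries stood at 42.3 and 27.7, the highest of all libraries. It held 1 TGANTCA match, TGACTCA, and 1 TGACG. The change was 1.51 ± 0.38, adjusted p = 0.0014, and the difference from KCl was 1.52 ± 0.48, adjusted p = 0.023. The first call was lost without BDNF 1 h A (1.18, adjusted p = 0.15), and the difference without BDNF 1 h A (1.20, adjusted p = 0.25), KCl 1 h A (1.36, adjusted p = 0.15) or KCl 1 h B (1.74, adjusted p = 0.13). At 10 h of KCl the libraries stood at 24.4 and 26.6, also above all controls, with a change of 1.06 and an adjusted p of 0.11 that became a call without control 1 h A (1.23, adjusted p = 0.065) or control 10 h A (1.12, adjusted p = 0.099). A second peak, 20.02 kb upstream in E230016M11Rik, was lower at 10 h of KCl, at 10.1 and 6.6 with a change of -1.46 ± 0.49, adjusted p = 0.056. That call was lost without KCl 10 h A (-1.78, adjusted p = 0.18), KCl 10 h B (-1.18, adjusted p = 0.40) or control 6 h A (-1.33, adjusted p = 0.11), and against the 10 h controls alone (-1.24, adjusted p = 0.28).

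At Ier2 a peak at -2.20 kb from the start, in Gm26664, was lower after 1 h of KCl, although Ier2 RNA rose. Controls ranged from 30.2 through 39.3 to 50.0, and the KCl 1 h libraries stood at 22.7 and 20.1. The change was -0.89 ± 0.31, adjusted p = 0.075, and the BDNF minus KCl difference at 1 h was 1.02 ± 0.36, adjusted p = 0.054. The KCl call was lost without KCl 1 h A (-0.97, adjusted p = 0.25), KCl 1 h B (-0.80, adjusted p = 0.41), control 1 h A (-0.82, adjusted p = 0.13) or control 6 h A (-0.83, adjusted p = 0.13), with limma (adjusted p = 0.14) and against the 1 h controls alone (-1.05, adjusted p = 0.10). The difference was lost with limma (adjusted p = 0.12) and without BDNF 1 h A (0.79, adjusted p = 0.35), KCl 1 h A (1.10, adjusted p = 0.12) or KCl 1 h B (0.93, adjusted p = 0.31). At Cdkn1a the intronic peak 1.85 kb from the nearest annotated start, which is a start inside the gene and not its first base, which held 1 TGANTCA match, changed by 0.36 ± 0.18 after 1 h of BDNF, adjusted p = 0.19. At Gadd45b, Ier5 and Ier5l the smallest adjusted p-values of any peak outside promoters, over the 6 comparisons with controls, were 0.16, 0.32 and 0.39. The peak with the first of these, 1.33 kb upstream of Gadd45b, became a call at 6 h of KCl without control 10 h A (0.86, adjusted p = 0.080), and at 1 h of BDNF against the 1 h controls alone (1.16, adjusted p = 0.020).

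Genes that work with the members were described from lists chosen by name, and no list was tested as a set. Of all genes tested, 21.3% were called higher and 19.0% lower at 1 h of BDNF. At 1 h of KCl the shares were 26.5% and 28.2%. Of the other CDK inhibitor genes, 0 of 7 were called by limma at 1 h of BDNF, where the Cdkn1a mean was 6.74 times that of controls, and Cdkn1b, which encodes p27, had a log2 change of 0.03 there. After 1 h of KCl 2 of 7 rose, and Cdkn1b was one of them at 0.85 ± 0.06, adjusted p = 3.5e-10, from a control mean of 2720.5 to 4976 and 4829.8. Cdkn1b was lower at 6 h of BDNF, by -0.35 ± 0.06, while Cdkn1a was still raised. Of 20 p53 pathway genes, 7 rose and 5 fell at 1 h of BDNF, with a median of -0.01, and 6 rose and 7 fell at 1 h of KCl, with a median of -0.07. Among them the kinase gene Plk3 rose in both, 1.63 ± 0.13 and 1.35 ± 0.13, whereas the antiproliferative gene Btg2 rose with BDNF, 1.24 ± 0.14, and fell with KCl, -1.75 ± 0.14, and Trp53inp1 fell in both, -0.66 ± 0.08 and -1.65 ± 0.08.

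Of 14 cyclin, CDK and PCNA genes, 3 rose and 1 fell at 1 h of BDNF. At 6 h of KCl 1 rose and 9 fell, and Ccne2, cyclin E2, was at -1.18 ± 0.12 there. Of all genes, 21.3% rose and 19.0% fell at 1 h of BDNF, and 22.1% and 21.1% at 6 h. For KCl the shares were 26.5% and 28.2% at 1 h, and 33.4% and 33.1% at 6 h. Of 8 markers of dividing progenitors, 0 were called at 1 h of BDNF by limma, 2 rose at 1 h of KCl, 5 fell at 6 h of BDNF, and 1 rose and 3 fell at 6 h of KCl. Summed over the 8, their level was 9318 to 12966 in controls, 8744 to 11249.9 with BDNF and 8054 to 13534 with KCl. Of 5 astrocyte markers tested, 0 were called at 1 h of either stimulus by limma, and 5 fell at 6 h of BDNF and 4 at 6 h of KCl. Summed over the astrocyte list, the level was 10562.5 to 15188 in controls, 9947 to 13599.9 with BDNF and 8599 to 16149 with KCl. The part of these shifts in the members' later values was not tested.

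Of 12 p38 and JNK kinase genes, the stress kinases that GADD45 proteins act upstream of, 1 rose and 1 fell at 1 h of BDNF. At 1 h of KCl 0 rose and 7 fell. Of all genes, 21.3% rose and 19.0% fell at 1 h of BDNF, and 26.5% and 28.2% at 1 h of KCl. Map3k5 rose at 6 h, by 0.75 ± 0.14 with BDNF and 1.87 ± 0.14 with KCl. Of 15 DNA demethylation and methylation genes, 5 rose and 6 fell at 1 h of BDNF, with a median of -0.29, and 1 rose and 8 fell at 1 h of KCl, with a median of -0.30. The glycosylase gene Mbd4 was among those that fell, -0.52 ± 0.11 with BDNF and -1.19 ± 0.11 with KCl. Of 17 genes for HSF1, its targets and other partners of the IER proteins, 12 rose and 0 fell at 1 h of BDNF, with a median of 0.27, and 15 rose and 1 fell at 1 h of KCl, with a median of 0.42. The heat shock gene Dnajb1 rose by 1.35 ± 0.09 and 0.55 ± 0.09, Mcl1 by 1.26 ± 0.06 and 0.81 ± 0.06, and Hsf1 was the gene that fell after 1 h of KCl, -0.35 ± 0.08, although it rose at 6 and 10 h of KCl, by 1.03 ± 0.08 and 0.67 ± 0.08.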

How the data were processed

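Each assay had 18 samples, 2 per group, grouped by their labels. Columns of the RNA table end in A or B, whereas those of the ATAC table name the group alone, so for ATAC these letters give table order and pair nothing. The study calls the 2 samples biological replicates without saying that they came from separate cultures, so p-values measure the spread between these samples, which may be technical.

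Per the study's methods, the authors mapped RNA reads to mm10 with TopHat2 and GENCODE M16. How reads were counted, and whether by strand, is not given in the sources used here. As deposited, RNA is a normalised signal: a gene's reads over 1 size factor for its sample, made by the authors with DESeq2. Multiplied back, 100% of values were whole within 0.01, and on these whole reads edgeR called 6481 genes at 1 h of BDNF and 8797 at 1 h of KCl, beside 6546 and 8863 with limma. For ATAC, reads were aligned with Bowtie2, peaks were called per sample with MACS2 and kept when present in at least 2 samples, and the deposited values are counts of reads from DiffBind over 58177 peaks. They are whole numbers with unequal totals, so no scaling was in them. The deposited table of genes was used only for names, beside a column of another kind, the time label, and the authors' fold changes and p-values in it and in the table of peaks were not used.

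RNA was tested with limma 3.58.1 (R 4.3.3, trend and robust) on log2(value + 1) for genes with a mean of at least 10, with 7 levels that pool the 6 controls as in the study. A fold change on this scale understates changes of low genes. ATAC was tested with edgeR 4.0.16 (quasi-likelihood, LOESS offsets with a span of 0.3) for peaks with a mean of at least 10. P-values were adjusted by Benjamini-Hochberg over all features and called under 0.1. Both fits were run on simulated data for BDNF 1 h against controls, with the same spread assumed for all features of an assay. This checked that planted changes were found, and cannot speak for the spread between the libraries here. Alternatives were pseudocounts of 0.5 and 5, no filter or a mean of 50, TMM, edgeR and DESeq2 1.42.0 on whole reads, DESeq2 size factors and limma for ATAC, controls of the same time, a replicate block, a threshold of 0.01 and leaving out each library, where the lone sample is assumed to vary like the other groups. Replicates differed beyond sampling noise, so none was counted once. Chi-square per degree of freedom ran from 2.44 to 39.6 for RNA and from 2.06 to 2.58 for ATAC. The 39.6 was that of KCl 6 h, and the next highest RNA value was 10.4, at control 1 h.

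Members and lists were chosen with earlier results of these data known. Genes named beside the members were the 3 most alike by Pearson correlation of 9 group means and, per list, up to 3 with the largest change among those called, and peaks named were promoter peaks and each member's other peak with the smallest adjusted p. The Gadd45a peak 20.02 kb upstream was named after its values were seen, as were Tubb3, Map2, Slc1a3, Mki67, Olig1, Cldn5, Col1a1 and Kdr among the markers. Promoters were read from RefSeq for GRCm38.p6, the same primary assembly as mm10.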

Additional observations from a re-analysis of the deposited data

Results flagged for a closer look

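Among the members, 4 differed between stimuli in their change from 1 to 6 h, tested as an interaction term over all genes with limma. Of all 16209 genes tested, 48.1% were called by the same test, so a call alone does not set a member apart. The BDNF minus KCl difference in the log2 change from 1 to 6 h was -1.81 for Ier5l, -1.40 for Gadd45b, -0.85 for Cdkn1a and -0.63 for Gadd45g. The last of these lost its call when BDNF 6 h A, KCl 1 h B or KCl 6 h A was left out, with adjusted p-values from 0.11 to 0.13.

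In the 6 controls, 0 of 8 members had an RNA value that stood apart from the rest by Dixon's limit of 0.625 for the gap over the range. Among 26 peaks, 3 had a control library that stood apart, all at the low end, and chance flags about 1 in 20 such groups. At the Ier5 peak 36.5 kb from the start, control 6 h A stood at 19.1 scaled counts beside a median of 34.6. At the Ier5 peak 7.03 kb from the start, control 10 h B stood at 18.1 beside a median of 34.1. At the Ier2 peak 1.30 kb upstream, control 6 h B stood at 59.8 beside a median of 84.6. None of these 3 peaks was called in a comparison with controls.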

How the results depend on the processing

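Of 71 calls for members in the RNA, 52 held under every alternative run except the threshold of 0.01, and 0 of 1921 alternative values reversed a called direction. Of 13 ATAC calls, 2 held, the 1 h BDNF rises downstream of Gadd45g and upstream of Ier3. Beside losses to a library left out, BDNF minus KCl lost its call for Ier3 at 1 h with DESeq2, for Gadd45g at 10 h with edgeR and for Ier2 at 10 h with DESeq2, no filter and controls of the same time. The fall of Ier5 from 1 to 6 h of BDNF was lost with no filter, and that of Cdkn1a from 6 to 10 h with controls of the same time for both stimuli and, for KCl, with TMM and no filter. One ATAC value was reversed, the Gadd45a promoter peak at 10 h of KCl, 0.05 and not called, which became -0.27 with DESeq2 size factors. With library A and B as a replicate block, Gadd45g at 10 h of BDNF became a call (-0.29, adjusted p 0.12 to 0.092), and no other RNA call for a member changed. Deviations of the letters correlated between -0.31 and 0.42 over 36 pairs of groups, with a median of 0.065. Of 18 libraries, 16 correlated best with one of their own letter, a hint from the data and not the design. The 2 libraries of a group deviate from its mean by equal and opposite amounts, so these 18 are not independent. No paired analysis was possible for ATAC because the columns carry no replicate numbers.

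The count of members called changed by over 1.5 times as follows. At a threshold of 0.01 it was 4 for BDNF 6 h, 3 for BDNF minus KCl at 10 h, 0 for BDNF 10 h minus 6 h, 3 for KCl 6 h minus 1 h and 2 for KCl 10 h minus 6 h. The count for BDNF 10 h minus 6 h was 2 with edgeR and with DESeq2, where Ier5l joined, and 0 with controls of the same time, and over all genes this comparison called 35 with limma, 55 with edgeR and 85 with DESeq2. Leaving out 1 library gave 4 to 7 for BDNF 6 h, 3 to 4 for BDNF minus KCl at 10 h, 0 to 0 for BDNF 10 h minus 6 h, 3 to 5 for KCl 6 h minus 1 h and 2 to 5 for KCl 10 h minus 6 h. For peaks, a threshold of 0.01 and controls of the same time gave 0 for BDNF 6 h, KCl 6 h and KCl 10 h, and for KCl 1 h they gave 0 and 1. The threshold of 0.01 also gave 0 for BDNF minus KCl at 1 h. BDNF 6 h fell to 1 with limma and with DESeq2. KCl 6 h rose to 2 with TMM, 2 with DESeq2 size factors and 3 with limma, KCl 10 h to 3 with TMM and 4 with DESeq2 size factors, and BDNF minus KCl at 6 h from 0 to 1 with each of these 3. Leaving out 1 library gave 0 to 2 for BDNF 6 h, 0 to 3 for KCl 1 h, 0 to 1 for KCl 6 h, 0 to 2 for KCl 10 h and 0 to 3 for BDNF minus KCl at 1 h. Apart from the threshold and the libraries left out, the cause was not tested. With 2 libraries per group, low reads (18 to 79 per library for Ier3, 32 to 135 for Gadd45a) limit what could be detected for these genes.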
